A study of Homo sapiens with 5 samples.

Results

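The transcripts of 10 chemokine ligands, CXCL1, CXCL2, CXCL3, CXCL5, CXCL6, CXCL8, CXCL12, CCL2, CCL5 and CCL20, were examined in D54, an established human glioma cell line, with and without silencing of TIP-1. Members were fixed by name, and for each gene the brightest row annotated to its symbol alone was taken. All 10 had exactly 1 such row among the 33297 rows of the array table. Control cells carried a control shRNA and were 2 independent clones, 1 array each. Silenced cells carried 1 of 3 shRNAs of different sequence against TIP-1, 1 array per shRNA, so every shRNA is represented by a single sample. All cells were seeded after trypsin and grown overnight in the same medium before RNA was taken, and no inflammatory stimulus is named in the labels. TIP-1 is a small protein formed by a single PDZ domain and is encoded by TAX1BP3.

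Chemokines are small secreted proteins that direct cell migration through G protein-coupled receptors. In the CXC group a single residue separates the first pair of cysteines, and in the CC group those cysteines are adjacent. CXCL1, CXCL2, CXCL3, CXCL5, CXCL6 and CXCL8 attract neutrophils through CXCR2, and CXCL6 and CXCL8 also act on CXCR1. Their genes lie side by side in a cluster on chromosome 4 and are textbook targets of NF-κB, induced by interleukin-1 and TNF. CXCL8, also called interleukin-8, is well known as a product of glioma cells that promotes blood vessel growth. CXCL12 is the ligand of CXCR4 and ACKR3, CCL2 attracts monocytes through CCR2, CCL5 attracts T cells and monocytes, and CCL20 acts on CCR6.

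The promoters of the 6 members in the cluster are shown as background to the comparison of CXCL8 with its neighbours. Each sequence is the stretch from 150 to 51 bases before the RefSeq gene start in GRCh38.p14, written 5′ to 3′ on the gene's own strand. Capitals mark the κB-type motif GGAATTTCC and the AP-1-type motif TGANTCA, where N is any base.
CXCL8 (chr4:73740419-73740518, plus strand): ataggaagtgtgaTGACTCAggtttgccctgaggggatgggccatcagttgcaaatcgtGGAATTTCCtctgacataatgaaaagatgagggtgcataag
CXCL6 (chr4:73836528-73836627, plus strand): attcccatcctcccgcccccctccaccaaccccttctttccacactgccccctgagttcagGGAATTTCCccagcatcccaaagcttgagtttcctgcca
CXCL1 (chr4:73869243-73869342, plus strand): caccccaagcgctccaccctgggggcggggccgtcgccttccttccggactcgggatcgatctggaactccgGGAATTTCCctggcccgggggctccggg
CXCL5 (chr4:73998728-73998827, minus strand): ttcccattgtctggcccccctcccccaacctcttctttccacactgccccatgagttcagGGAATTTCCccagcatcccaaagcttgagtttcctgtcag
CXCL3 (chr4:74038740-74038839, minus strand): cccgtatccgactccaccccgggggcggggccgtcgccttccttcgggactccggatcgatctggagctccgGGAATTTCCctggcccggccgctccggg
CXCL2 (chr4:74099246-74099345, minus strand): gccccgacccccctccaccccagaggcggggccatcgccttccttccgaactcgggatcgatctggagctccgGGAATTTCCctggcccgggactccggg
In the 250 bases before the start, searched on both strands, all 6 held GGAATTTCC. The 5 neighbours held it within the longer GGGAATTTCC, which is that motif with the base before it as read in CXCL1, and CXCL8 did not. Of 35116 RefSeq promoters of that length, 0.413% held GGAATTTCC and 0.142% held GGGAATTTCC. TGANTCA was found in CXCL8 and in none of the 5 neighbours, and 6.57% of all promoters held it. Promoters of 8 of the 10 members were matched in the RefSeq table. The remaining 2 of those 8, CXCL12 and CCL20, held none of these motifs in that window. These are matches of letters, not measured sites, and whether they bear on any difference in signal was not tested.

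Silencing was read first from the row shared by TAX1BP3 and its read-through transcript. Its log2 signal was 12.05 and 12.10 in the controls against 9.81, 9.61 and 9.55 with shRNAs 1, 2 and 3 (limma adjusted p = 0.011). It was the only row of the table past an adjusted p of 0.05, 0.003% of rows tested. Array medians lay between 7.88 and 7.98, and the number of arrays limits the precision. The glioma label was set against 11 astroglial and glioma markers. By the mean over all arrays, 5 lay above the table's median signal: VIM, CD44, EGFR, SOX9 and GFAP. GFAP and NES read close to the median (control means 8.09 and 7.98), and the mean of NES over all arrays, 7.91, was below it. The control means of SOX2 (7.12), SLC1A3 (6.57), S100B (6.26), AQP4 (5.71) and FABP7 (6.38) lay below the median. The mean signal of the 7 myeloid markers was 7.40 to 7.53 in the controls and 7.16 to 7.45 with TIP-1 shRNA, and no marker of any of the 6 cell type lists passed the test. The ranges of the mean signal for the controls and the silenced cells were 6.95 to 7.01 and 6.79 to 6.88 for 5 lymphocyte markers. They were 6.79 to 6.83 and 6.71 to 6.73 for 5 endothelial markers, 7.37 to 7.40 and 7.08 to 7.36 for 4 epithelial markers, and 7.20 to 7.37 and 7.06 to 7.40 for 5 fibroblast markers.

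Most of the ligands gave low signals in this line. Means over all 5 arrays of 9 of the 10 were at or below the table's median signal of 7.94, and CCL2 alone lay above it. The table carries no detection call, so a low signal cannot be read as absence, and because rows differ in how brightly their probes shine, no order of abundance is drawn between genes. None of the 10 passed the test across all rows. As deposited, 9 had a lower mean with TIP-1 shRNA and 1 a higher mean, against 53.7% of all rows lower. That direction depended on scaling. After quantile normalization 5 of the 10 were lower and after median centring 4 of the 10, against 51.1% and 37.2% of all rows. The median difference of the 10 was -0.04 log2 units (TIP-1 shRNA minus control), beside -0.01 over all rows and -0.04 over rows at or below the median signal.

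**Figure D1:**
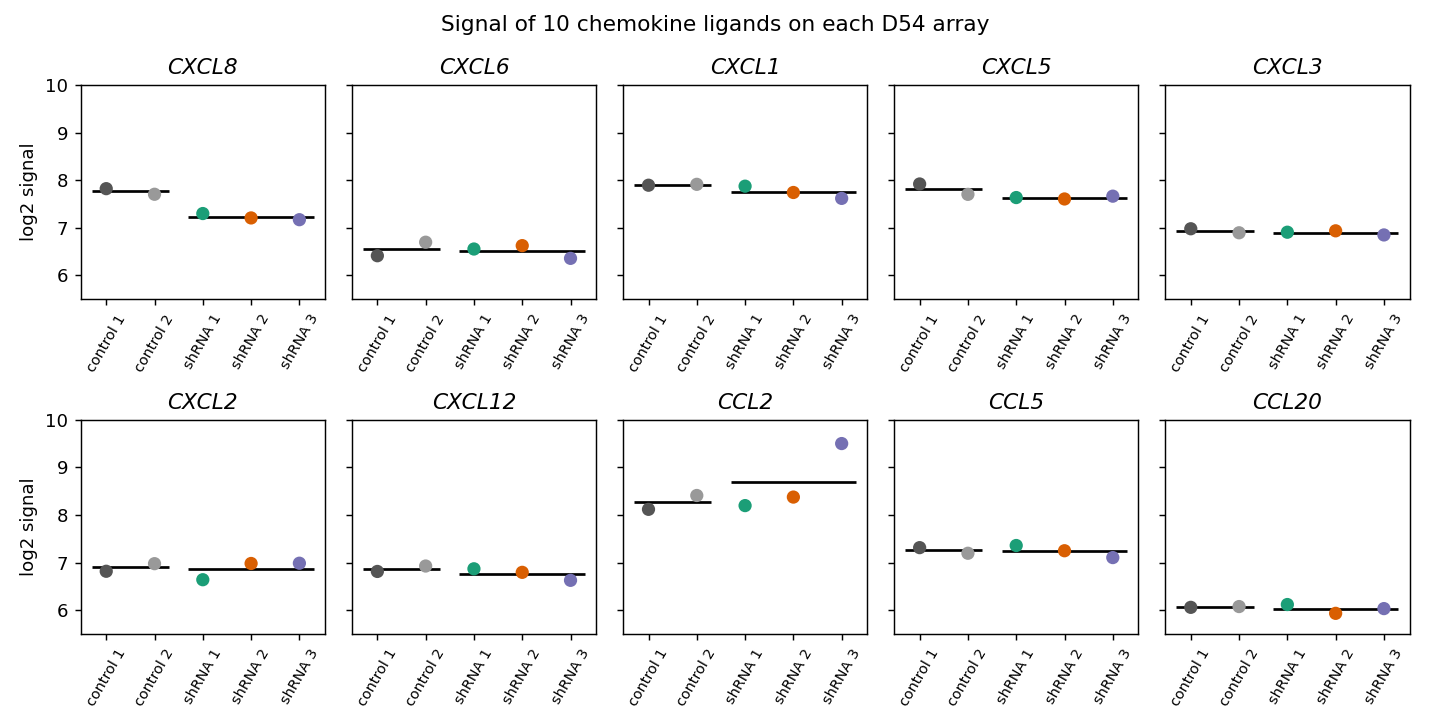
Log2 signal of each of the 10 ligands (panels) on each of the 5 arrays; points are arrays and horizontal lines are group means. CXCL8 lies lower on all 3 shRNA arrays than on both controls, and CCL2 stands apart on the shRNA 3 array only, at 9.50.

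CXCL8 had the largest difference of the 10. Its log2 signal was 7.82 and 7.70 in the controls against 7.30, 7.21 and 7.17 with shRNAs 1, 2 and 3. Every shRNA array was below both controls, and the 3 shRNAs lay within 0.13 log2 units of each other, about as close as the controls, which were 0.12 apart. The signal was 1.45-fold lower with TIP-1 shRNA, with a 95% interval of the ratio to control from 0.593 to 0.801. On the log2 scale the difference was -0.54 (SE 0.09, limma unadjusted p = 0.000869). The adjusted p over all rows was 0.707, so the gene did not pass. Bulk RNA does not tell fewer expressing cells from less RNA per cell. At an unadjusted p under 0.05, 3.95% of all rows were lower with TIP-1 shRNA, as were 5.33% of rows at or below the median signal, and CXCL8 was 1 such row among the 10 ligands. No ligand was higher at that level, against 3% of all rows. CXCL8 was the single member whose interval excluded 0.

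Of the other 5 neutrophil attractants in the cluster, CXCL1 and CXCL5 came nearest to CXCL8 in pattern. CXCL1, first described as a melanoma growth factor, read 7.89 and 7.91 in the controls against 7.87, 7.74 and 7.62 with shRNAs 1, 2 and 3. The groups did not overlap, but shRNA 1 was only 0.03 below the control mean while shRNA 3 was 0.29 below it. Its difference was -0.16 (95% interval -0.41 to 0.09), and -0.10 without shRNA 3. CXCL5 read 7.92 and 7.70 in the controls against 7.63, 7.60 and 7.66 with shRNAs 1, 2 and 3. All 3 shRNA arrays were again lower than both controls, although shRNA 3 was just 0.04 below control 2 (difference -0.18, 95% interval -0.41 to 0.06), and the difference was -0.07 without control 1. Together with CXCL8 these made 3 of 10 ligands with every shRNA array below both controls, against 14.5% of all rows and 17.5% of rows at or below the median signal. No ligand had all 3 above both, against 11.6% of all rows and 8.88% of rows at or below the median signal. After quantile normalization CXCL8 was the only one of the 3 whose groups still did not overlap, and after median centring CXCL8 and CXCL1 were. The count of 3 became 5 without control 1 or without shRNA 1, since fewer arrays are easier to separate.

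CXCL2, CXCL3 and CXCL6 had overlapping groups. CXCL2, a close copy of CXCL1, read 6.82 and 6.98 in the controls against 6.64, 6.98 and 6.98 with shRNAs 1, 2 and 3. The shRNA 1 array lay below both controls, and shRNAs 2 and 3 lay just above control 2. The difference was -0.03 (95% interval -0.36 to 0.30). CXCL3, the third of these close copies, read 6.98 and 6.89 in the controls against 6.91, 6.94 and 6.85 with TIP-1 shRNA. Its 5 arrays spanned a narrow range and its interval was the narrowest of the 10 ligands (-0.24 to 0.16). CXCL6, which lies next to CXCL8 in the cluster, read 6.41 and 6.70 in the controls against 6.55, 6.62 and 6.36 with TIP-1 shRNA. The controls were further apart than the group means, and the difference was -0.04 (95% interval -0.36 to 0.27). CXCL1, CXCL2 and CXCL3 resemble each other in sequence, and how far their rows share signal was not tested.

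**Figure D2:**
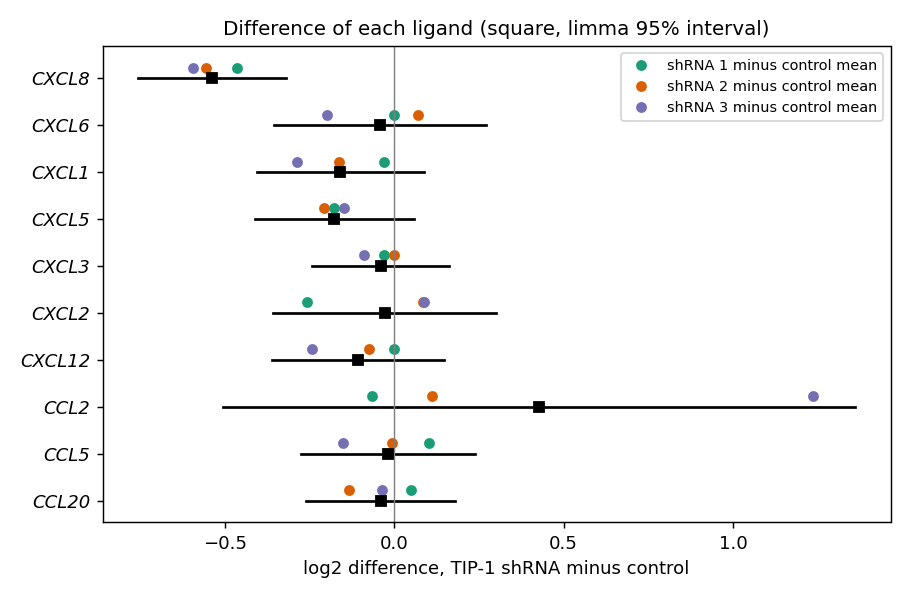
Log2 difference between TIP-1 shRNA and control for each ligand: squares are group differences with limma 95% intervals, and coloured points are single shRNA arrays minus the control mean. The interval of CXCL8, from -0.75 to -0.32, is the only one that leaves out 0, and the wide interval of CCL2 goes with its shRNA 3 point at 1.24.

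The cluster holds 3 more genes, whose proteins are best known from platelets. PF4 and PF4V1 encode platelet factor 4 and its close relative, and PPBP encodes the platelet protein from which CXCL7 is cut. Their differences were -0.03 for PF4, -0.10 for PF4V1 and 0.02 for PPBP, all with overlapping groups. Of the 8 cluster genes other than CXCL8, all 8 had a 95% interval that included 0. The nearest protein-coding genes outside the cluster by RefSeq order were RASSF6, which encodes a Ras association domain protein, at -0.10 (SE 0.08), and MTHFD2L, a mitochondrial folate enzyme, at -0.02 (SE 0.17). RASSF6 also had all shRNA arrays below both controls, at 5.05 and 5.09 in the controls against 5.00, 4.96 and 4.95.

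To compare CXCL8 with each neighbour directly, the log2 gap between their signals was taken within each array, a measure that centring of arrays cannot change. The gap was lower on all 3 shRNA arrays than on both controls for 8 of 8 neighbours. Against CXCL6, the gap was 1.41 and 1.01 in the controls against 0.75, 0.58 and 0.81 with shRNAs 1, 2 and 3, a shift of -0.49. Against CXCL5, the neighbour with the smallest shift, it was -0.10 and 0.00 in the controls against -0.34, -0.40 and -0.49 with TIP-1 shRNA, a shift of -0.36. Against CXCL1 the shift was -0.38, and against PPBP, where it was largest, -0.56. An exact two-sided permutation test over the 10 splits of the arrays gave p = 0.1 for 7 of the 8 gaps, the smallest it can give with 2 arrays against 3, and p = 0.2 for CXCL2 (0.114 and 0.2 after Benjamini-Hochberg adjustment over 8 gaps). This test could not pass 0.05 whatever the values, so its p-values decide nothing about the shifts. All 8 gaps share the CXCL8 values and are not independent of each other. CXCL8 was itself lower on every shRNA array, so the count of 8 largely restates that row. How many rows outside the cluster would give such a gap was not counted, so nothing particular to the cluster is drawn from it. The gaps describe unequal shifts of CXCL8 and its neighbours on these arrays, and do not show that any neighbour was unaltered.

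**Figure D3:**
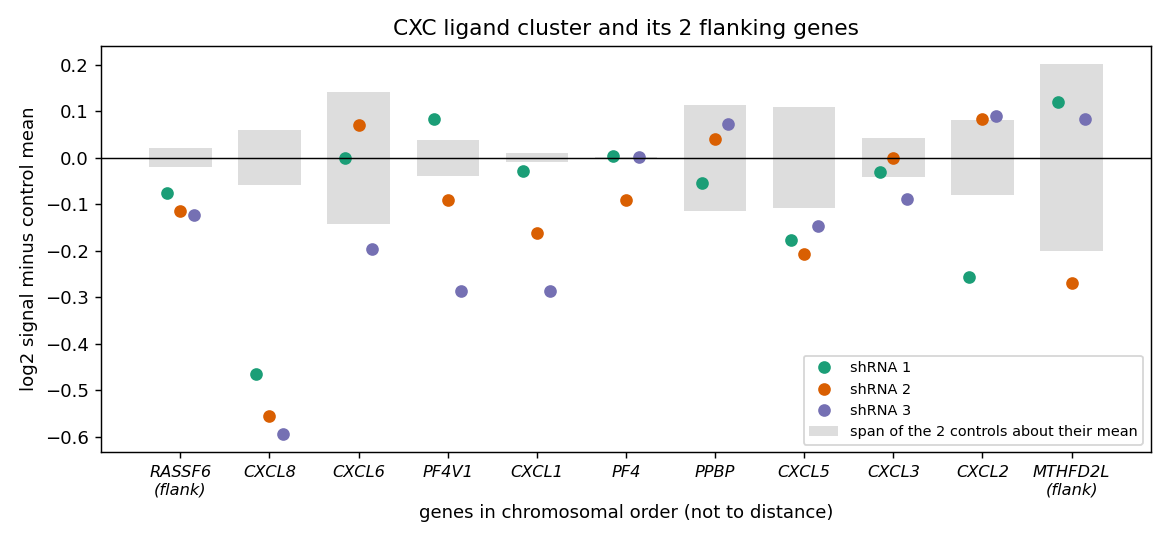
Genes of the CXC cluster and 1 flanking gene on each side in chromosomal order; points are the log2 signal of each shRNA array minus the control mean, and grey bars span the 2 controls. For CXCL8 the 3 points lie at -0.46, -0.56 and -0.59, and no other gene has all 3 points below -0.2.

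CXCL12, which is constitutive in many tissues and lies outside the cluster, read 6.81 and 6.93 in the controls against 6.87, 6.79 and 6.63 with shRNAs 1, 2 and 3. The shRNA 3 array was the lowest, and shRNA 1 lay between the controls. The difference was -0.11 (95% interval -0.36 to 0.15), and it was -0.04 without shRNA 3 and -0.04 with quantile normalization.

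Among the CC ligands, CCL2 moved on 1 array. It read 8.12 and 8.41 in the controls, 8.20 with shRNA 1, 8.37 with shRNA 2 and 9.50 with shRNA 3. The shRNA 1 and shRNA 2 arrays fell between the controls, and shRNA 3 was 1.24 log2 units above the control mean. The group difference was 0.43 (SE 0.38, 95% interval -0.51 to 1.36, limma adjusted p = 0.789), and without shRNA 3 it was 0.02. Other genes were mixed on the same array. CCL7 read 6.65 and 6.64 in the controls against 6.74 with shRNA 3, CCL8 read 6.48 and 6.73 against 6.36, and CCL11 read 7.45 and 7.50 against 7.28. CXCL16, a membrane-bound ligand of CXCR6, stood apart there, at 8.24 and 8.28 in the controls against 7.98, 7.72 and 9.24 with shRNAs 1, 2 and 3. Genes among the NF-κB pathway, the inducing receptors, the co-induced products and the AP-1 and C/EBP factors also stood apart on shRNA 3, as given beside their lists. All of these comparators were picked after their values were seen, and shRNA 3 has no second array against which its values could be checked. A split with 1 shRNA above both controls and the others below both was not limited to shRNA 3. Over all rows it was present in 3.78% for shRNA 1, 1.86% for shRNA 2 and 4.23% for shRNA 3. For shRNA 1 it included CCL20 and 3 of 21 receptors, but no gene of those 4 lists. No ligand had it for shRNA 3. In the alternative fit with array weights, the shRNA 3 array had the lowest weight, 0.40, against 0.89 to 2.79 for the other arrays. The CCL2 difference in that fit was 0.17. The median signal of the shRNA 3 array, 7.88, was also the lowest. Whether its values reflect the shRNA or the array was not tested.

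CCL5 and CCL20 had overlapping groups. CCL5 read 7.31 and 7.19 in the controls against 7.36, 7.25 and 7.10 with shRNAs 1, 2 and 3, with a difference of -0.02 (95% interval -0.27 to 0.24). CCL20, an attractant of CCR6-bearing lymphocytes and dendritic cells, gave low signals, at 6.06 and 6.07 in the controls against 6.12, 5.93 and 6.03 with TIP-1 shRNA. Its difference was -0.04 (95% interval -0.26 to 0.18). Across the 10 ligands the shRNA 3 array held the lowest value of the 5 for 6 genes and the highest for 2.

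The remaining chemokines and the receptors were counted from lists. Of 30 other chemokine genes measured, none passed the test, 20 were lower and 10 higher, and the median difference was -0.09. All shRNA arrays were below both controls for 10 of the 30, against 14.5% of all rows and 17.5% of rows at or below the median signal, and above both for 1, against 11.6% and 8.88%. The genes with the smallest p were CCL4, a macrophage inflammatory protein, at -0.47 (SE 0.09, limma adjusted p = 0.707), and CCL21, which guides T cells to lymph nodes through CCR7, at -0.29 (SE 0.09). CCL4 read 5.54 and 5.44 in the controls against 5.11, 5.00 and 4.95 with TIP-1 shRNA in a dim row. Of 21 receptor genes none passed, 17 were lower and 4 higher, with a median of -0.13, and 7 had all shRNA arrays below both controls, to be read against the same shares. CX3CR1, the fractalkine receptor of myeloid cells, was at -0.38 (SE 0.11) and CXCR1, a receptor of CXCL8, at -0.25 (SE 0.11). CXCR2, the other CXCL8 receptor, was at 0.10 and CXCR4 at -0.06. These rows are mostly dim: 4 of the 30 chemokines and 2 of the 21 receptors lay above the median signal, and among all rows at or below it 60.1% were lower with TIP-1 shRNA. The receptors split into 14 lower and 7 higher after quantile normalization and into 13 and 8 after median centring. With quantile normalization the medians were -0.04 and -0.06, and the counts of genes with all shRNA arrays below both controls were 9 and 5, against 12.1% of dim rows.

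**Figure D4:**
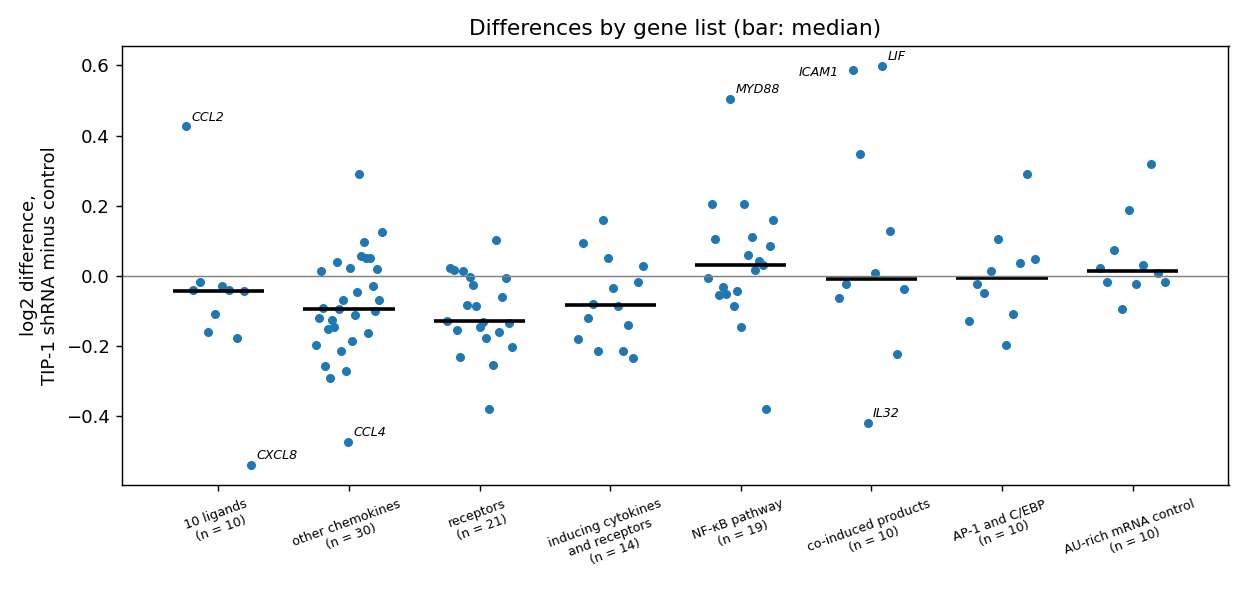
Log2 difference (TIP-1 shRNA minus control, limma fit) of every measured gene in 8 lists, with list medians as bars and genes beyond 0.4 in either direction named. Medians lie between -0.13 for the receptors and 0.03 for the NF-κB pathway, and no gene shown passed the test.

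The NF-κB pathway, which drives induction of the neutrophil attractants of the cluster, was measured for 19 genes, and none passed in either direction. The median was 0.03, with 11 higher and 8 lower, and with 16 higher and 3 lower after median centring. MYD88, the adaptor of interleukin-1 and Toll-like receptors, read 9.75 and 9.87 in the controls against 10.42, 10.44 and 10.09 with TIP-1 shRNA. All 3 were above both controls (difference 0.51, SE 0.13, limma adjusted p = 0.707). CHUK, the kinase IKK-alpha, was at 0.21 (SE 0.09). All shRNA arrays were above both controls for 5 of the 19 genes, against 11.6% of all rows, and below both for 1, against 14.5%. Of these 19 rows, 17 lay above the median signal. Among all rows at or below it the shares were 8.88% above and 17.5% below. The shares thus shift with brightness, and those of bright rows alone are not given here. In other genes of the list the 3 shRNAs did not run together. Relative to the control mean, the subunit gene NFKB2 was at -0.44, -0.48 and 0.80 under shRNAs 1, 2 and 3, the inhibitor NFKBIA at -0.49, -0.44 and 0.50, and the inhibitor NFKBIE at -0.25, -0.20 and 0.63. These 3 of 19 genes had shRNA 3 above both controls and shRNAs 1 and 2 below both, against 4.23% of all rows. The feedback inhibitor TNFAIP3 was at -0.45, -0.69 and 0.01. CXCL8 was at -0.46, -0.56 and -0.59 on the same scale, and a relation between it and these genes was not tested. NFKB2, NFKBIA, NFKBIE and TNFAIP3 were singled out after their values were seen, and no test compared shRNA 3 with the others. Of 14 cytokines, receptors and sensors that induce those attractants, none passed. Their median was -0.08, with 10 lower and 4 higher, and with 8 lower and 6 higher after median centring. The smallest p belonged to the RNA sensor TLR3 (-0.21, SE 0.11) and the interleukin-1 receptor IL1R1 (-0.21, SE 0.12). The split of shRNA 3 from the other shRNAs was present in 3 of these 14 genes, TNFRSF1A, TLR4 and OSMR.

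Products that are often induced beside CXCL8 lay on both sides of 0, and several differed between shRNA 3 and the other shRNAs. Of 10 such genes none passed, with 5 higher and 5 lower (7 and 3 after median centring). The cytokine LIF read 9.49 and 9.21 in the controls against 9.96, 10.05 and 9.83 with TIP-1 shRNA, above both controls on every shRNA array (difference 0.60, SE 0.12, limma adjusted p = 0.707). IL11, another cytokine of the interleukin-6 family, was at 0.35 (SE 0.20), with shRNA 3 between the controls. Relative to the control mean, the adhesion molecule ICAM1 was at 0.27, 0.15 and 1.33 under shRNAs 1, 2 and 3 (difference 0.59, SE 0.40), but its controls read 9.27 and 10.05. The cytokine IL32 was at -0.73, -0.93 and 0.41 (difference -0.42, SE 0.39) and the mitochondrial dismutase SOD2 at -0.52, -0.50 and 0.35. IL32 and SOD2 were the 2 of these 10 genes with shRNA 3 above both controls and shRNAs 1 and 2 below both, against 4.23% of all rows. These examples were again chosen after their values were seen. Of 10 AP-1 and C/EBP factors none passed (5 higher and 5 lower; 4 and 6 after quantile normalization, 7 and 3 after median centring), and the 2 with the smallest p lay on opposite sides: JUNB, a partner in AP-1, at 0.29 (SE 0.09) and FOSL1, also an AP-1 subunit, at -0.20 (SE 0.10). The same split of shRNA 3 from the other shRNAs was present in 3 of these 10 factors, FOS, FOSL2 and CEBPB. Of 10 proteins that act on AU-rich mRNAs, a class to which CXCL8 mRNA belongs, none passed. Of these, 6 were higher and 4 lower as deposited, 4 and 6 after quantile normalization and 9 and 1 after median centring. ZFP36, which binds such mRNAs and hastens their decay, read 9.49 and 9.18 in the controls against 9.66, 9.55 and 9.76 with TIP-1 shRNA (difference 0.32, SE 0.12), and MAPKAPK2, a kinase that restrains ZFP36, was at -0.09 (SE 0.09). At an unadjusted limma p under 0.05 the lower genes numbered 2 among the other chemokines, 1 among the receptors and 0 in the remaining 5 lists. The higher genes numbered 1 each in the lists of the NF-κB pathway, co-induced products, AP-1 and C/EBP factors and AU-rich mRNA control, and 0 elsewhere. Over all rows these shares were 3.95% lower and 3% higher, and 5.33% of rows at or below the median signal were lower.

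Finally, genes whose 5 array values most resembled those of CXCL8 were sought among 11774 genes' rows above the median signal, each centred on its own mean, by root mean square distance in log2 units. The nearest were GEM, a small GTP-binding protein, at 0.066, SYNC, an intermediate filament protein, at 0.078, and SNORD14E, a small nucleolar RNA, at 0.086. GEM read 11.44 and 11.31 in the controls against 11.02, 10.91 and 10.72 with shRNAs 1, 2 and 3, and none of these genes passed the test. The distances of the cluster members CXCL5 and CXCL1 from CXCL8 were 0.187 and 0.195, and 3.5% and 4.76% of the candidates were nearer than these. The other cluster members were at 0.247 (CXCL3), 0.284 (CXCL6) and 0.313 (CXCL2). Outside the cluster, CXCL12 (0.228) was nearer than these last, and CCL20 (0.252) and CCL5 (0.258) were nearer than CXCL6 and CXCL2. The distance is not scaled, so for rows that hardly moved it is set mainly by the spread of CXCL8 itself and by scatter. The order among such rows is therefore not read as likeness. CCL2 was the farthest of the ligands at 0.687. The nearest ligands by this measure, CXCL5 and CXCL1, were cluster members. The order of the others cannot tell whether likeness followed the cluster. With 5 arrays and so many candidates this is a description only.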

How the data were processed

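Total RNA from 5 D54 samples was hybridised to Affymetrix whole-transcript arrays, 1 array per sample. The deposited values are log2 signals that, per the series' design text, the authors made with Affymetrix's Exon Array Computational Tool. The software version, genome build, normalization and background steps are not stated in those sources. That text names an exon array, whereas the row identifiers belong to a gene-level array design, so each row was read as 1 value per transcript cluster and not per exon. The values were used as deposited. Rows were named through the platform annotation, in which 19460 rows carry 1 symbol, 1754 several and 12083 none. Annotation can be old; 19429 symbols were looked up by gene identifier in a table of GRCh38.p14 and 0 changed.

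Each difference is the mean of the TIP-1 shRNA arrays minus that of the controls, fitted over all 33297 rows with limma 3.58.1 in R 4.3.3 (lmFit, eBayes, two-sided, 95% intervals) and adjusted by Benjamini-Hochberg at 0.05. The method was also run on values simulated under the model's own assumptions, with planted shifts larger than any ligand difference. That run does not bear on differences of the size seen here. The spread behind the p-values is that among control clones and among shRNAs. Named genes were the silenced gene, the 10 ligands, the CXCL8 cluster with 1 gene on each side, the 2 genes of smallest p in each other list and the 3 genes most like CXCL8, with exceptions stated. The ligands, lists and rules were chosen with earlier results of these data known. Of the listed genes, CCL13, CCL15, CCL27, CCR3, TRAF2, RIPK1, CSF2, BIRC3 and MAPK14 had no row with that symbol alone and were not analysed here. Alternatives were quantile normalization, median centring, bright rows only, a trended robust fit, array weights, leaving out each array and a block on the array number.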

Additional observations from a re-analysis of the deposited data

How the results depend on the processing

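No ligand passed the threshold under any alternative run. The CXCL8 difference of -0.54 was -0.47 with quantile normalization, -0.48 with median centring, -0.54 with array weights and -0.60 to -0.48 when 1 array was left out; its adjusted p ranged from 0.264 to 0.980 over all 10 alternatives. With bright rows only, CCL2 was the only ligand tested. Each ligand has 1 row, so averaging rows could not differ and was not run. Of 101 ligand values under alternatives, 80 kept their direction and 21 changed sign, all of them in CXCL2, CXCL3, CXCL6, CCL5 and CCL20, whose differences are near 0. With quantile normalization CXCL2 came to 0.0369, CXCL3 to 0.0277, CXCL6 to 0.0193 and CCL5 to 0.0466. With median centring they came to 0.0329, 0.0213, 0.0184 and 0.0437, and CCL20 to 0.0216. With array weights CXCL6 came to 0.0265 and CCL5 to 0.00891. Leaving out 1 array gave -0.108 to 0.0864 for CXCL2, -0.082 to 0.00245 for CXCL3, -0.185 to 0.0992 for CXCL6, -0.0779 to 0.0487 for CCL5 and -0.0845 to 0.00802 for CCL20. It gave 0.02 to 0.67 for CCL2, -0.16 to -0.04 for CXCL12, -0.29 to -0.07 for CXCL5 and -0.22 to -0.10 for CXCL1.

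With the replicate block on the array number, which leaves shRNA 3 out of the difference because it has no partner, the CXCL8 difference was -0.51 (limma adjusted p = 0.264), CXCL6 was 0.0346 and CCL5 0.0487. Deviations from the group means correlated across rows at 0.049 between control 1 and shRNA 1 and at -0.053 between control 2 and shRNA 2, and no pairing was assumed. Rows past the threshold numbered 1 as deposited, 2 with array weights, 15 with the block and, on dropping single arrays, from 0 to 6: omitting either control or shRNA 2 gave 0, omitting shRNA 1 gave 2 and omitting shRNA 3 gave 6. The count of ligands with all shRNA arrays below both controls, an alternative added after seeing the data, was 3 as deposited, 1 with quantile normalization, 2 with median centring and 3 to 5 on dropping single arrays (5 on dropping control 1 or shRNA 1). Causes were not tested. Fits with a single control take its spread from the shRNA arrays. The table holds no background signal and no detection call, which limits how dim rows can be read.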
